A study of Mus musculus with 5 samples.

Results

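Sox transcription factors of cortical progenitors and neurons were followed through an RNA immunoprecipitation of mouse neocortex at E13.5. The 9 genes (Sox1, Sox2, Sox3, Sox4, Sox5, Sox9, Sox11, Sox12 and Sox21) were taken by gene symbol from the 49875 gene IDs of the table, and 9 of 9 were among the 12769 genes tested (those with 2 or more libraries at 1 or above). Such an assay sequences the RNA that comes down with a protein, here eIF4E, the cap-binding subunit of the translation initiation machinery. Cortical cells of wild-type embryos were opened in NP-40 buffer, and what stayed in solution after low-speed centrifugation was kept as cytoplasm. The libraries were 2 eIF4E precipitates (antibody MBL RN001P), 1 precipitate with rabbit control immunoglobulin G (IgG, Bioss bs0295P) and 2 Input libraries of the same kind of supernatant without precipitation. Sample titles name neocortex and call the eIF4E and Input replicates biological, and the tissue field names forebrain. Neither says which animals or pools a replicate came from. The p-values cover the variation among these libraries, and how much of it lies between animals is unknown. Values are gene-level RSEM abundances, either TPM or FPKM. Both are per transcript length, so that levels of different genes within a library can be compared as far as length goes. Bias between genes from library preparation or annotation was not tested. No counts were given and the sequencing depth is unknown.

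Sox proteins bind DNA through an HMG box related to that of the testis-determining factor Sry, and usually act with a partner factor. The SoxB1 proteins Sox1, Sox2 and Sox3 keep neural progenitors undifferentiated, and the SoxB2 protein Sox21 is a repressor that opposes them in the chick neural tube. Sox9, of the SoxE group, maintains neural stem cells and later promotes gliogenesis. The SoxC proteins Sox4, Sox11 and Sox12 are made as progenitors become neurons and activate neuronal genes, and the SoxD protein Sox5 controls the fate and migration of deep-layer neurons. A tissue that holds radial glia and newborn neurons together can hold mRNAs of all of these groups, and a bulk library cannot tell fewer cells of a type from less RNA per cell.

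eIF4E meets an mRNA at its capped 5′ end, so the first 30 bases from the annotated start are shown for the members whose start was in the RefSeq table of GRCm38.p6 (7 of 9, not Sox3 and Sox9). Capitals mark the run of C and T that begins at the first base. A cap followed by such a run is the terminal oligopyrimidine (TOP) start of many ribosomal protein mRNAs. The annotated start is not a measured cap site, and Sox5, with 28 RefSeq transcripts, has other starts. The Sox5 window shown lies well inside the gene, whose span on the minus strand begins at chr6:144782287.
Sox1: gtcactcgccagcgcgccatgcaaatcacc
Sox2: ggatggttgtctattaacttgttcaaaaaa
Sox21: acacacacactcacacacggccgcggctgg
Sox4: CTgctctaagctgcagccagagaaacagag
Sox11: gccctcaactttttgcagaagaagcgcgcg
Sox12: ggcggcgggcgggcaagcgcgcgcggggcc
Sox5: CTTacaagcatagaagctaggagatgaagc

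None of the 7 began with C and a run of at least 5 C or T, a start that 2.4% of the 12412 RefSeq starts of tested genes had (298). Sox4 began with a run of 2 and Sox5 with a run of 3, and the other starts began with G or A. The windows lay at chr8:12395519-12395548 (plus strand) for Sox1, chr3:34649995-34650024 (plus) for Sox2, chr14:118237001-118237030 (minus) for Sox21, chr13:28953670-28953699 (minus) for Sox4, chr12:27342689-27342718 (minus) for Sox11, chr2:152398017-152398046 (minus) for Sox12 and chr6:143947077-143947106 (minus) for Sox5.

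The IgG library stood apart from the others, and this touches every comparison made with it. Across the tested genes its log2 abundances correlated with those of the other libraries at r = 0.593 to 0.707, against 0.989 between the eIF4E libraries and 0.993 between the Input libraries (genes are not independent replicates). It listed 11825 genes above 0, against 17412 to 18745 in the others, and 360 of 5403 genes above 10 in each other library were at 0 there. No Sox member was at 0 in any library. Eif4e mRNA, which encodes the precipitated protein, measured 1230.61 and 1300.11 in eIF4E, 120.15 in IgG and 197.83 and 204.96 in Input.

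Markers of the labelled tissue were present. The 7 radial glia markers summed to 1417 and 1298 in eIF4E, 1103 in IgG and 1640 and 1671 in Input, and the 6 newborn neuron markers to 1396 and 1350 in eIF4E, 1127 in IgG and 1477 and 1503 in Input. The 3 intermediate progenitor markers summed to 388.4 and 410.3 in eIF4E, 214.4 in IgG and 262.6 and 253.8 in Input, and the 3 interneuron markers to 32.7 and 31.8, 41.6, and 26.5 and 27.0 in the same order. Among other cell types, the 4 erythroid markers summed to 5143 and 3917 in eIF4E, 2071 in IgG and 14393 and 15702 in Input. The 6 endothelial markers summed to 37.4 and 42.0 in eIF4E, 2.9 in IgG (4 of 6 at 0) and 84.9 and 87.5 in Input. Meningeal markers (4) summed to 52.6 and 55.8 in eIF4E, 29.5 in IgG and 56.8 and 53.6 in Input, and microglial markers (4) to 13.7 and 10.8, 22.0, and 23.4 and 28.02 in the same order. Oligodendrocyte precursor and neural crest markers (5) summed to 3.86 or less in every library, with Sox10, which defines that lineage, at 0 in all 5. A sum can hide members that moved apart. In eIF4E against Input, 3 radial glia markers were higher and 4 lower, and 2 meningeal markers were higher and 2 lower (limma, adjusted p under 0.05). The meningeal markers Dcn and Lum were at 0 in IgG, as were 2 of the 4 microglial markers. The erythroid gene Alas2 measured 238.61 in IgG and 69.9 and 71.12 in Input, against the direction of the erythroid sum. The part of these cell types in the Sox values was not tested.

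In the cytoplasmic Input the Sox mRNAs spanned a wide range of levels. Sox9 was the most abundant at 101.8 ± 1.39 (SD, n = 2), followed by Sox5 at 60.7 ± 6.64, Sox12 at 54.0 ± 1.28, Sox11 at 18.3 ± 0.247 and Sox4 at 11.2 ± 0.764. The SoxB genes were low, with Sox3 at 5.45 ± 0.608, Sox21 at 2.99 ± 0.0849, Sox1 at 2.94 ± 0.0778 and Sox2 at 2.62 ± 0.0495. Only Sox21 and Sox1 overlapped as neighbours in this order. Among all tested genes Sox9 lay at percentile 88.3 and 88.5 of the Input libraries, and Sox2 at 27.2 and 26.7. In these same libraries Vim, an intermediate filament gene of radial glia, measured 823.45 and 845.84, and Pax6, a transcription factor of radial glia, 23.58 and 25.94.

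The order differed in the precipitates. In eIF4E it ran Sox5, Sox11, Sox9, Sox12, Sox4, Sox1, Sox21, Sox2 and Sox3, where Sox5 and Sox11 overlapped, as did Sox2 and Sox3. In the lone IgG library it ran Sox5, Sox11, Sox9, Sox12, Sox1, Sox4, Sox21, Sox3 and Sox2, so the leading 4 genes stood in the same order as in eIF4E.

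**Figure D1:**
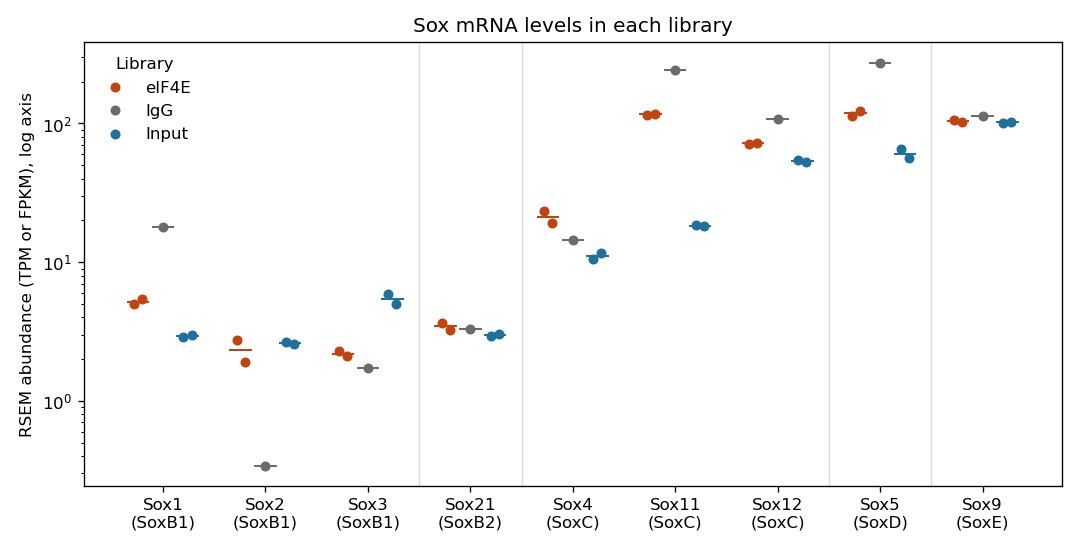
RSEM abundance (TPM or FPKM, log axis) of the 9 Sox mRNAs, by subfamily, in the eIF4E, IgG and Input libraries. Points are libraries and short bars group means (the lone value for IgG). For Sox11, Sox5, Sox12 and Sox1 the eIF4E points lie above the Input points and below the IgG point.

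Setting eIF4E against Input asks which Sox mRNAs took a larger or smaller share with the cap-binding protein than in the cytoplasm it came from. Sox11, Sox5, Sox4, Sox1 and Sox12 were higher in eIF4E and Sox3 was lower. This makes 5 of 9 higher and 1 lower, where 43.3% of all genes tested were higher and 30.6% lower (limma, adjusted p under 0.05). The median log2 fold change of the members was 0.40, against 0.16 over all genes. Fold changes here and below are on the scale of value + 1, which understates the change of low genes such as the SoxB genes. Leaving the IgG library out of the fit gave the same 5 and 1.

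Sox11 (ENSMUSG00000063632), an activator of neuronal genes in differentiating neurons, moved most. It measured 115.12 and 117.1 in eIF4E and 18.46 and 18.11 in Input, a 6.07-fold rise (log2 2.60, SE 0.05, limma adjusted p = 4.7e-05). Its log2 change lay at percentile 97.6 of all genes and 2.44 above their median. The IgG library had 243.26, above both eIF4E libraries, so that Sox11 fell to 0.479 of IgG in eIF4E (log2 −1.06, SE 0.06, adjusted p = 1.0e-04). IgG itself was 12.7-fold above Input. Both eIF4E values thus lay between Input and IgG.

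Sox4 (ENSMUSG00000076431), which acts with Sox11 in newborn neurons, measured 23.29 and 19.24 in eIF4E, 14.42 in IgG and 10.61 and 11.69 in Input. The eIF4E libraries were higher than all 3 others. The rise over Input was 1.83-fold (log2 0.87, SE 0.12, adjusted p = 0.0024). That over IgG was 1.44-fold (log2 0.52, SE 0.14, adjusted p = 0.022), a call that was lost without eIF4E replicate 1 (adjusted p = 0.0545), without Input replicate 1 or 2 (0.0534 each), without the filter on low values (0.0650) and after rescaling to the same total (0.236). Over its 11 alternatives the adjusted p ran from 0.0155 to 0.236.

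Sox12 (ENSMUSG00000051817), the SoxC member described as the weakest activator, measured 71.15 and 72.27 in eIF4E, 107.51 in IgG and 54.88 and 53.07 in Input. Its rise over Input was small at 1.32-fold (log2 0.40, SE 0.05, adjusted p = 0.0018) and did not pass under median-of-ratios scaling (log2 0.08, adjusted p = 0.22; adjusted p from 4.7e-04 over the alternatives). Against IgG it fell to 0.67 in eIF4E (adjusted p = 7.4e-04), and IgG was 1.97-fold above Input. The SoxC genes therefore differed in rank within a library. Sox11 was 4.94 and 6.09 times as abundant as Sox4 in eIF4E, 16.9 times in IgG, and 1.74 and 1.55 times in Input. Relative to Sox12, Sox11 stood at 1.62 in both eIF4E libraries, 2.26 in IgG, and 0.336 and 0.341 in Input. A factor per library cancels in these ratios. With 2 libraries against 2, an exact two-sided permutation test cannot go below p = 0.333, and none was run.

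Sox5 (ENSMUSG00000041540), which shapes deep-layer neurons, measured 113.65 and 122.49 in eIF4E, 274.74 in IgG and 65.43 and 56.04 in Input. It rose 1.93-fold over Input (log2 0.95, SE 0.09, adjusted p = 8.0e-04) and fell to 0.432 of IgG in eIF4E (log2 −1.21, SE 0.11, adjusted p = 4.8e-04). In IgG it was the most abundant of the 9 and 4.48-fold above Input. As with Sox11, the 3 groups did not overlap and eIF4E stood between the others.

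Sox9 (ENSMUSG00000000567), which maintains radial glia, was nearly level across libraries at 105.76 and 102.58 in eIF4E, 112.62 in IgG and 100.81 and 102.78 in Input. The eIF4E and Input ranges overlapped. The difference over Input was log2 0.03 with a 95% confidence interval of −0.09 to 0.16 (adjusted p = 0.549). Its direction depended on the scaling: log2 −0.29 with median-of-ratios scaling (adjusted p = 0.0046) and 0.27 after rescaling to the same total (adjusted p = 0.0056). Against IgG it was log2 −0.11 (−0.26 to 0.04, adjusted p = 0.127), and lower after rescaling to the same total (log2 −0.46) and quantile normalization (log2 −0.50). Relative to Sox9 in the same library, Sox11 stood at 1.09 and 1.14 in eIF4E, 2.16 in IgG, and 0.183 and 0.176 in Input, and Sox5 at 1.07 and 1.19, 2.44, and 0.649 and 0.545 in the same order.

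Sox2 (ENSMUSG00000074637), which marks neural progenitors, measured 2.75 and 1.91 in eIF4E, 0.34 in IgG and 2.65 and 2.58 in Input. The eIF4E values lay on either side of those of Input, with log2 −0.13 (95% confidence interval −0.55 to 0.29, adjusted p = 0.493). It was lower after quantile normalization (log2 −0.69, adjusted p = 0.0085) and its sign turned without eIF4E replicate 2 (log2 0.05) and after rescaling to the same total (log2 0.04). It was higher in eIF4E than in IgG (2.47-fold, SE 0.20 on the log2 scale, adjusted p = 0.0026), but quantile normalization turned this direction (log2 −0.44, adjusted p = 0.0617). IgG lay at 0.371 of Input (adjusted p = 0.0017), a call that quantile normalization also took away (log2 −0.24, adjusted p = 0.225). Of the genes tested, 2651 were listed at 0 in IgG, and by rank Sox2 stood at percentile 19.0 and 13.3 in eIF4E, 24.2 in IgG and 27.2 and 26.7 in Input.

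Sox3 (ENSMUSG00000045179), the X-linked SoxB1 gene, measured 2.28 and 2.1 in eIF4E, 1.74 in IgG and 5.88 and 5.02 in Input. Both eIF4E values were below both Input values, and it fell to 0.495 of Input (log2 −1.01, SE 0.12, adjusted p = 0.0015). It was the only member to pass in this direction. IgG was lower than Input as well, at 0.426 (adjusted p = 9.5e-04). The difference between eIF4E and IgG did not pass (log2 0.22, 95% confidence interval −0.17 to 0.60, adjusted p = 0.217) and turned to log2 −0.93 (adjusted p = 0.0041) after quantile normalization and −0.01 after rescaling to the same total.

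Sox1 (ENSMUSG00000096014), an early marker of the neural plate, went the other way at 4.99 and 5.4 in eIF4E, 17.93 in IgG and 2.88 and 2.99 in Input. It rose 1.57-fold over Input (log2 0.65, SE 0.09, adjusted p = 0.0028), a call lost after quantile normalization (log2 0.14, adjusted p = 0.314; adjusted p from 0.0011 over the alternatives). Against IgG it fell to 0.327 in eIF4E (log2 −1.61, SE 0.11, adjusted p = 2.0e-04), and IgG stood 4.81-fold above Input. The ratio of Sox1 to Sox3 was 2.19 and 2.57 in eIF4E, 10.3 in IgG, and 0.490 and 0.596 in Input.

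Sox21 (ENSMUSG00000061517), the repressor, measured 3.67 and 3.23 in eIF4E, 3.29 in IgG and 2.93 and 3.05 in Input. Both eIF4E values lay above those of Input, by log2 0.16 (95% confidence interval −0.13 to 0.44, adjusted p = 0.245). The sign turned with median-of-ratios scaling (log2 −0.09) and quantile normalization (log2 −0.54, adjusted p = 0.0135), while with equal library totals it passed as higher (log2 0.36, adjusted p = 0.0389). Against IgG the difference was log2 0.05 (−0.30 to 0.40, adjusted p = 0.733), with the sign turned without eIF4E replicate 1 (log2 −0.02), after rescaling to the same total (log2 −0.24) and after quantile normalization (log2 −0.82, adjusted p = 0.0060).

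The genes Sox2 (chr3:34649995-34652461) and Sox1 (chr8:12395519-12399555) each lie inside the span of a long noncoding gene, Sox2ot and Sox1ot. Only gene spans were compared, and the libraries did not mark strand. Whether the genes of a pair share exons, and how reads were divided between them, was not tested. Sox2ot, named after its values were seen, measured 14.03 and 15.24 in eIF4E, 12.64 in IgG and 2.7 and 3.11 in Input, a rise of 4.01-fold over Input (adjusted p = 1.4e-04) where Sox2 itself did not pass. Sox1ot measured 2.91 and 2.74 in eIF4E, 0 in IgG and 1.88 and 1.99 in Input. Its rise of log2 0.38 (adjusted p = 0.0291) passed with its direction in only 4 of 12 alternatives and turned to log2 −0.08 after quantile normalization.

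The comparison of eIF4E with IgG asks whether a Sox mRNA had a higher relative abundance with the cap-binding protein than in the control precipitate. Sox2 and Sox4 were higher and Sox11, Sox5, Sox12 and Sox1 lower, 2 and 4 of 9, where 53.1% of all genes tested were higher and 30.6% lower. The median log2 fold change of the members was −0.11 and that of all genes 0.55. The value over all genes includes 2651 genes listed at 0 in IgG, where no member is. It moved both with the filter and with the scaling, and what sets it was not tested. Among the 10679 genes above 0 in all 5 libraries the median was 0.03, with 4389 higher and 4248 lower, and over all genes tested it was −0.04 after quantile normalization and 0.27 after rescaling to the same total. The 4 lower calls kept their direction and passed in each of 11 alternatives. That of Sox2 passed with its direction in 10 of them and that of Sox4 in 6. This comparison shares its eIF4E libraries with that against Input, and its lone IgG library was assumed to vary like the others. All 11 alternatives used that IgG library, so they cannot show whether its values would repeat. How much RNA each precipitate held is not known, so these are differences in relative abundance and not in amount. Nor are the values shares of a common total. The listed values summed to 718857 and 708778 in eIF4E, 560076 in IgG and 838759 and 848550 in Input. The main fit did not rescale them.

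The control precipitate itself differed from Input, with Sox11, Sox1, Sox5 and Sox12 higher in IgG and Sox2 and Sox3 lower. That is 4 and 2 of 9, where 37.8% of all genes tested were higher and 50.3% lower. The member median lay at log2 0.35 and that of all genes at −0.43. Among genes above 0 in all 5 libraries the median was 0.26, of the same sign as that of the members, with 5183 higher and 4072 lower. Over all genes tested it was −0.63 after median-of-ratios scaling, −0.06 after quantile normalization and 0.04 after rescaling to the same total. Each of the 4 higher calls and that of Sox3 passed in all 11 alternatives. Sox4 stood at 1.27-fold in IgG over Input (log2 0.35, 95% confidence interval −0.03 to 0.73, adjusted p = 0.0737). With equal library totals it passed as higher (log2 0.91, adjusted p = 0.0020), as did Sox9 (log2 0.73, adjusted p = 1.8e-04) and Sox21 (log2 0.60, adjusted p = 0.0107). All 11 alternatives of IgG against Input used the lone IgG library, so they cannot show whether its values would repeat. The comparisons of eIF4E and of IgG with Input share both Input libraries.

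**Figure D2:**
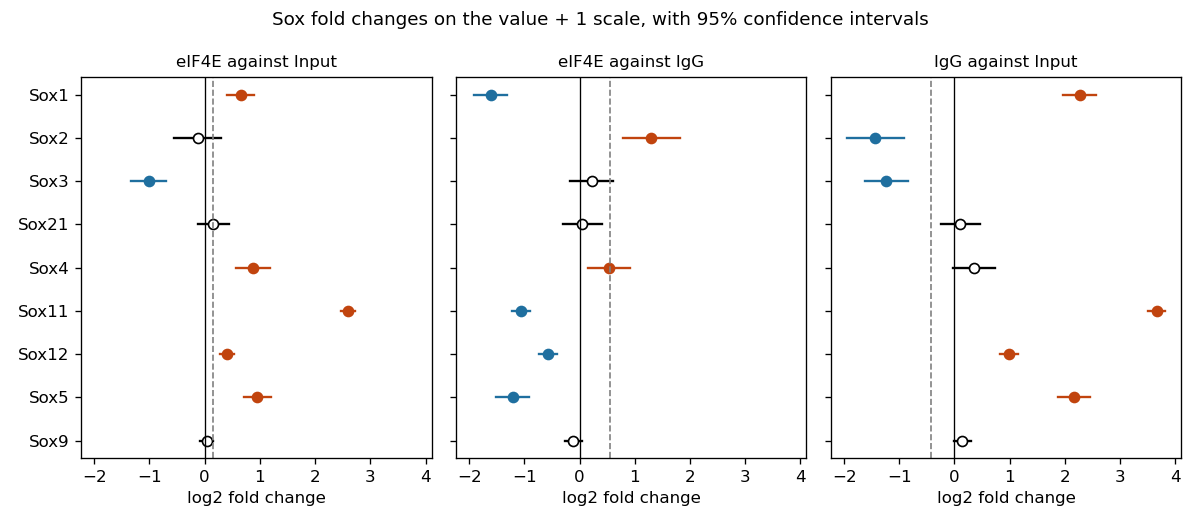
Log2 fold change (value + 1 scale) of each Sox mRNA in the comparisons of eIF4E with Input, eIF4E with IgG and IgG with Input. Bars are 95% confidence intervals from limma, filled points passed at an adjusted p under 0.05 (red higher, blue lower), open points did not, and the dashed line is the median of all genes tested. Sox11, Sox5, Sox12 and Sox1 lie to the right in the outer panels and to the left in the middle one.

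Seen as a composition, the Sox mRNAs of eIF4E and IgG held less Sox9 and more Sox11 than those of Input. Shares of the summed level of the 9 mRNAs do not depend on the unit or scale of a library. The sum itself was 442.66 and 446.32 in eIF4E, 775.85 in IgG and 264.53 and 255.33 in Input. A lower share is therefore not a lower level: in eIF4E, Sox9 was nearly level with Input and Sox12 was above it. Sox11 made up 26% and 26.2% in eIF4E, 31.4% in IgG, and 6.98% and 7.09% in Input. Sox9 made up 23.9% and 23.0% in eIF4E, 14.5% in IgG, and 38.1% and 40.3% in Input. The 3 SoxC genes together held 47.3% and 46.7% in eIF4E, 47.1% in IgG, and 31.7% and 32.5% in Input. Both eIF4E libraries were above both Input libraries in the SoxC share, through Sox11. The share of Sox12 was lower, at 16.1% and 16.2% in eIF4E, 13.9% in IgG, and 20.7% and 20.8% in Input, and that of Sox4 overlapped, at 5.26% and 4.31% in eIF4E and 4.01% and 4.58% in Input. The 3 SoxB1 genes together held 2.26% and 2.11% in eIF4E, 2.58% in IgG, and 4.31% and 4.15% in Input. Sox1 accounted for 2.31% of the sum in IgG, where Sox2 held 0.0438%.

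**Figure D3:**
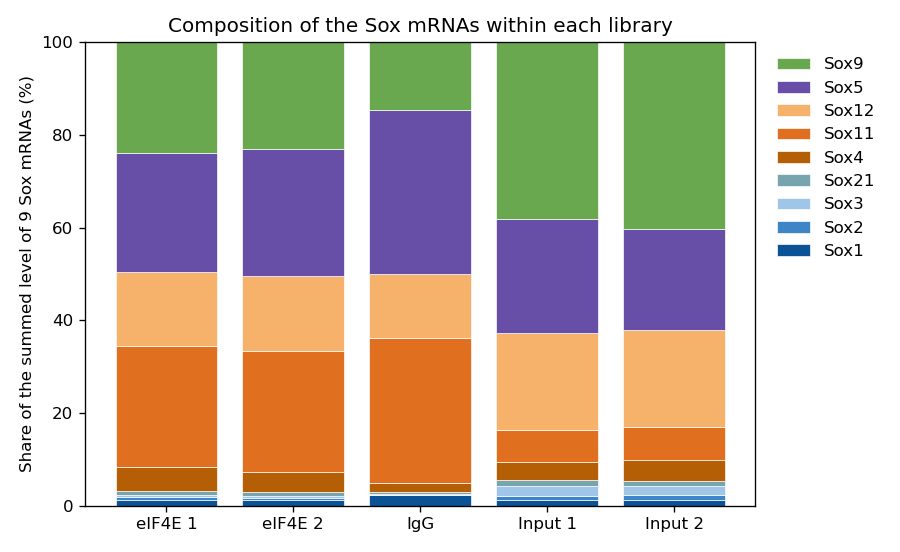
Share of each Sox mRNA in the summed level of all 9 (percent), 1 bar per library. Sox11 fills 26% and 26.2% of the eIF4E bars, 31.4% of the IgG bar and 6.98% and 7.09% of the Input bars, and Sox9 is widest in Input.

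Of 11 other Sox genes listed, those apart from Sox6 stayed at 14.34 or below in every library. Of the 11, 6 were tested and 1 was higher and 3 lower in eIF4E than in Input. Over all genes tested, 43.3% were higher and 30.6% lower. Sox6, a SoxD gene like Sox5 that acts in progenitors and interneurons, measured 25.64 and 19.6 in eIF4E, 89.99 in IgG and 8.71 and 4.74 in Input, and rose 3.14-fold over Input (log2 1.65, SE 0.29, adjusted p = 0.0056). Sox5 and Sox6 thus had their highest values in the same library, IgG, as did Sox1, Sox9, Sox11 and Sox12. Sox8, a SoxE gene like Sox9, fell to 0.374 of Input (3.0 and 2.64 in eIF4E, 4.4 in IgG, 9.07 and 9.36 in Input; adjusted p = 3.1e-04). The endothelial genes Sox17 and Sox18 fell to 0.547 and 0.58 of Input (adjusted p = 0.0020 and 0.0054), while Sox7 (log2 −0.19, adjusted p = 0.193) and Sox13 (log2 0.33, adjusted p = 0.241) did not pass. Sox7 passed as lower after median-of-ratios scaling (log2 −0.42) and quantile normalization (log2 −0.73), and Sox13 as higher without eIF4E replicate 2 (log2 0.62). Sox7, Sox13, Sox17 and Sox18 were listed at 0 in IgG. Sox10, Sox14, Sox15 and Sry were at 0 in all 5 libraries, and Sox30 reached 0.02 in 1 of them.

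Genes that work with Sox factors gave a setting for these values. Of 20 partners and chromatin cofactors of SoxB1 proteins, 15 were higher and 1 lower in eIF4E than in Input, where 43.3% of all genes tested were higher and 30.6% lower, with a list median of log2 1.23 against 0.16 over all genes. Pou3f2, a POU partner of SoxB1, measured 12.54 and 12.37 in eIF4E, 31.31 in IgG and 3.73 and 3.54 in Input (2.90-fold over Input, adjusted p = 1.4e-04). Chd7, a remodeller that binds Sox2, rose 4.07-fold over Input (156.23 and 150.21 in eIF4E, 281.3 in IgG, 38.5 and 35.33 in Input), and Pax6 rose 2.42-fold. The corepressor Ncor1 had the highest change of the list (8.57-fold) and the remodeller Smarca4 the lowest (0.775), whose call was lost after rescaling to the same total (adjusted p = 0.067). Against IgG, 5 of these 20 were higher in eIF4E and 9 lower, beside 53.1% and 30.6% of all genes tested. Pou3f2, Chd7 and Pax6, like Sox11, lay between Input and IgG. In eIF4E, Ncor1 stood at 0.718 of IgG and Smarca4 at 1.03, and neither difference passed.

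The 22 tested genes of radial glia downstream of or expressed with SoxB1 factors and Sox9 went both ways in eIF4E against Input, with 12 higher and 8 lower (list median log2 0.42), beside the same 43.3% and 30.6% over all genes. Gli3, the hedgehog pathway repressor, rose 4.06-fold over Input and Hes1, a Notch effector, fell to 0.267. Both were lower in eIF4E than in IgG, at 0.27 and 0.503 of it. Of 24 genes of newborn neurons downstream of or expressed with SoxC factors, 18 were higher and 3 lower (list median log2 0.65). Myt1l, a neuronal transcription factor, rose 6.97-fold over Input but stood at 0.425 of IgG in eIF4E. Dcx, a microtubule protein of migrating neurons, rose 4.36-fold at 29.55 and 30.92 in eIF4E, 106.5 in IgG and 6.48 and 5.86 in Input. Tubb3, a neuronal tubulin, fell to 0.611 of Input, at 622.42 and 555.52 in eIF4E, 230.46 in IgG and 945.71 and 979.5 in Input.

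In eIF4E against Input, 43.3% of all genes tested were higher and 30.6% lower. Deep-layer genes expressed with Sox5 had 8 of 11 higher and 2 lower (list median log2 0.92), with Foxp2 at 6.47-fold and Crym at 0.545. Regulators of Sox proteins and mRNAs had 12 of 19 higher and 7 lower (list median log2 0.61), with the repressor Pum2 at 5.75-fold and the RNA-binding protein Msi1 at 0.518. The limma adjusted p of each named gene against Input was at most 0.00631. Relative to IgG, eIF4E stood at 0.384 for Foxp2, 3.70 for Crym, 0.699 for Msi1 and 1.11 for Pum2, which did not pass. Against IgG the split was 7 higher and 13 lower for the radial glia list, 7 and 12 for newborn neurons, 6 and 4 for deep layers and 8 and 6 for the regulators, where 53.1% of all genes tested were higher and 30.6% lower. Medians of the same lists against IgG were log2 −0.72, −0.40, 0.25 and 0.16, beside 0.55 over all genes. Among genes above 0 in all 5 libraries they were −0.78, −0.40, 0.04 and 0.16, beside 0.03. The lists were chosen with earlier results of these data known.

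**Figure D4:**
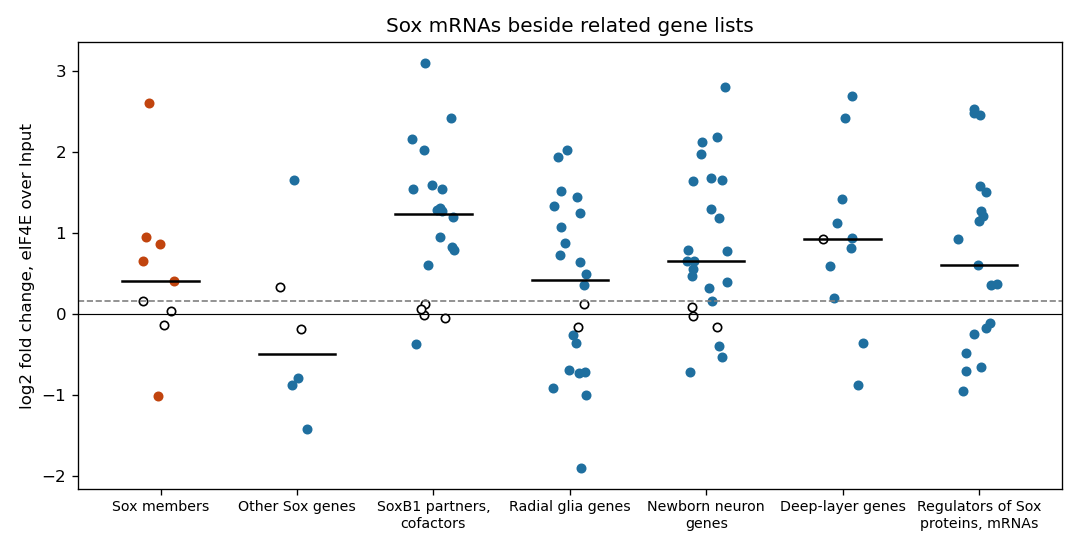
Log2 fold change of eIF4E over Input (value + 1 scale) of the 9 Sox mRNAs and of the tested genes of 6 lists, each point a gene. Filled points passed at an adjusted p under 0.05, open points did not, black bars are medians and the dashed line is the median of all genes tested (0.16). Sox11, at 2.60, lies near the top of the points shown and Sox3, at −1.01, near the bottom.

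Gene length went along with the changes over Input. Of the 8 members with 1 RefSeq transcript, Sox11 is the longest gene at 8451 bases (chr12:27334268-27342718, GRCm38) and rose most in eIF4E and in IgG. Sox3 (2065 bases) and Sox2 (2467 bases) are the shortest and had the lowest changes in both. Spearman's rho between gene length and log2 fold change was 0.738 for eIF4E against Input and 0.738 for IgG against Input over these 8 genes, as a description. Over the 12399 tested genes with a RefSeq entry it was 0.401 and 0.389, so the direction was not particular to Sox genes. That larger set was not limited to genes with 1 transcript, so the sizes of rho are not like for like. Sox5, which spans 953863 bases and has 28 RefSeq transcripts, is not among the 8. For eIF4E against IgG rho was −0.476 over the 8 genes and −0.257 over the 12399. The comparisons with Input share the Input libraries, and the points share all 5 libraries. Sox9, at 5548 bases the second longest of the 8, stood off this order with log2 0.03 and 0.14. Length here is that of the gene, introns included where there are any, and its part in the changes was not tested.

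**Figure D5:**
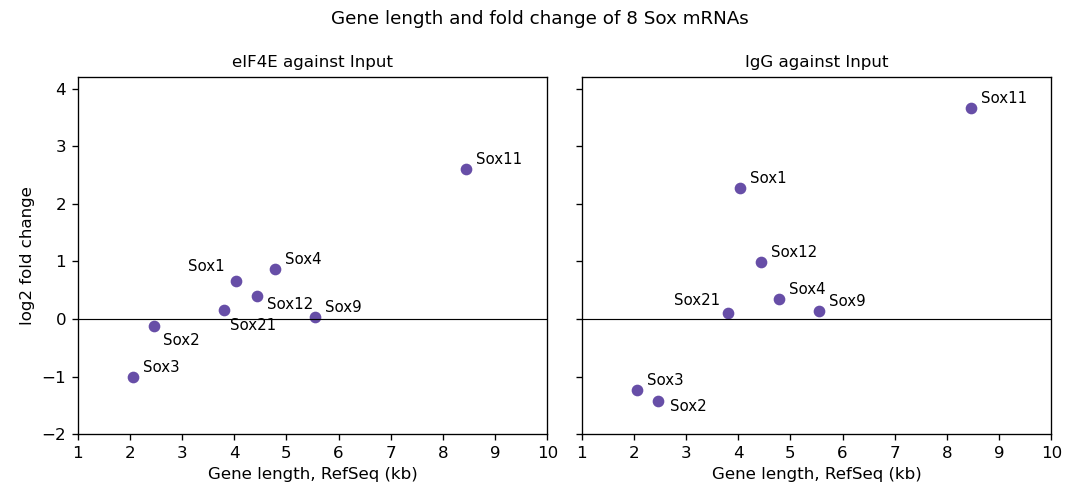
RefSeq gene length (kb) and log2 fold change over Input (value + 1 scale) for the 8 Sox genes with 1 RefSeq transcript, in eIF4E (left) and IgG (right). Sox11 is at the upper right and Sox2 and Sox3 at the lower left of both panels.

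Genes with the library pattern most like that of 2 members were sought among the more abundant tested genes, by the root mean square distance of log2(value + 1), centred per gene, over the 5 libraries. For Sox11 they were Marchf7 (distance 0.0662), Kif5c (0.0683) and Myef2 (0.0792), out of 6137 genes. Kif5c, a neuronal kinesin heavy chain, measured 87.32 and 94.53 in eIF4E, 209.66 in IgG and 13.92 and 13.71 in Input. In all, 64 genes lay within 0.25 of Sox11. For Sox2 they were Serf2 (0.0354), Mrpl35 (0.0567) and Mettl22 (0.0571), with 482 genes within 0.25. The added 1 flattens a low gene such as Sox2 more than these: by the values themselves IgG stood at 0.13 of the Input mean for Sox2 and at 0.358 for Serf2. Serf2 measured 710.43 and 562.36 in eIF4E, 254.95 in IgG and 698.54 and 726.29 in Input.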

How the data were processed

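RNA of 5 libraries (2 eIF4E precipitates, 1 IgG precipitate, 2 Input) was turned into libraries with Smart-seq2 (poly(A)-primed, with neither strand nor molecules marked), per the labels' protocols. The deposited table holds RSEM abundances that the authors normalized for length (TPM or FPKM, not stated which). The build mm10 and the tools RSEM 1.3.3 and STAR 2.7.9a come from the submitters' processing notes. For annotation and options, the sources used here give nothing. Depth is unknown, so no counting intervals are given.

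Of 50161 rows, 286 were exact repeats of another gene ID and were removed. Genes at 1 or above in 2 or more libraries (12769) were tested on log2(value + 1) with limma 3.58.1 in R 4.3.3 (3 groups, eBayes with trend, two-sided, Benjamini-Hochberg over all tested genes, threshold 0.05; 2 residual and 2.571 median prior degrees of freedom). The fit was also run on simulated data with known changes in a small part of the genes, in eIF4E against Input only. Far more genes were called in the data, and the simulation did not test the comparisons with IgG. Alternatives changed scaling, pseudocount (0.1), filter, variance trend, samples and replicate block.

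Members were matched by symbol. Named beside them were, in each gene list, the highest and lowest genes past the threshold in eIF4E against Input, the always-listed Pou3f2, Chd7, Pax6, Dcx and Tubb3, the 3 genes nearest to Sox2 and to Sox11, and Eif4e. Marker lists are given as summed levels. Coordinates, lengths and starts are from RefSeq (GRCm38.p6, the assembly of mm10). The members and lists were chosen with earlier results of these data known.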

Additional observations from a re-analysis of the deposited data

How the results depend on the processing

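In eIF4E against Input, Sox11, Sox4, Sox5 and Sox3 kept direction and call in all 13 alternatives (Sox11 from log2 2.29 to 2.85). Higher and lower members came to 4 and 2 after median-of-ratios scaling, 4 and 3 after quantile normalization and 7 and 1 after rescaling to the same total, against 5 and 1. Over the 12769 genes tested the counts were 4417 and 5256, 4297 and 5145, and 6498 and 2735 in the same order, against 5535 and 3906. The all-gene median of this comparison was log2 0.16, with 58.6% of calls higher. It was −0.11 with median-of-ratios scaling (45.7% higher) and with quantile normalization (45.5%), and 0.38 after rescaling to the same total (70.4%). Against IgG, higher members came to 1 after quantile normalization, after rescaling to the same total, without the filter, and from 1 to 2 when a replicate was left out, and lower members to 7 after quantile normalization, where 48.8% of calls were higher, against 63.4% as reported, 55.8% with equal library totals and 50.8% when each gene had to be above 0 in all 5 libraries. Of the 12769 genes tested, 4609 were higher and 4835 lower than in IgG after quantile normalization, and 6070 and 4818 after rescaling to the same total. In IgG against Input, quantile normalization left 1 lower member, where 5168 of the 12769 genes were lower. Rescaling to the same total made 7 members higher, where 5827 genes were higher. The filter for values above 0 in all 5 libraries leaves out every gene at 0 in IgG. With it 4389 genes were higher and 4248 lower in eIF4E than in IgG, against 6785 and 3912 as reported, and 5183 higher and 4072 lower in IgG than in Input, against 4823 and 6428 (56.0% of calls higher, against 42.9%). Of reversals not given above, IgG against Input turned for Sox21 (log2 −0.11) and Sox9 (−0.13) after median-of-ratios scaling and for Sox4 (−0.10) after quantile normalization, and Sox13 turned against Input to −0.21 after quantile normalization. The reversals given with the genes were Sox9 −0.29, Sox21 −0.092 and −0.54 and Sox2 0.043 against Input, Sox2 −0.44, Sox3 −0.93 and −0.014 and Sox21 −0.82 and −0.24 against IgG, and Sox1ot −0.084 against Input. With a replicate left out, Sox2 against Input ran from −0.31 to 0.053 and Sox21 against IgG from −0.020 to 0.12. In the gene lists, lower calls in eIF4E against Input moved to 6 (newborn neurons) and 3 (SoxB1 partners) with median-of-ratios scaling, and to 4 (regulators) after rescaling to the same total. The cause of these moves was not tested.

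The labels do not say that a replicate number marks a shared animal or day, and the deviations of same-numbered eIF4E and Input libraries correlated at r = 0.0236 across genes. With the replicate number as a block, 5401 genes were higher and 3749 lower, and 5 members higher and 1 lower, in eIF4E against Input. Low values limit the SoxB genes, for which depth is unknown.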
